A study of Mus musculus with 8 samples.

Results

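The genes described here encode the proteins of the mitochondrial ribosome and were chosen by symbol: Mrps or Mrpl, then a number and at most 1 letter. The count table holds 76 such genes among 26873 features, 30 named for the small subunit (Mrps) and 46 for the large subunit (Mrpl), and no symbol occurred more than once. Of these, 75 had enough counts to be tested, as had 15942 features in all. Mrps21l, the remaining member, had at most 10 counts in any library and between 0 and 0.239 CPM (counts scaled to the library total). The table writes mrpl9, mrpl11 and mrpl24 in lower case, so these ribosomal protein genes lie outside the rule and are given separately where their lists are described.

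RNA was sequenced from bone marrow mesenchymal stem cells, labelled as a wild-type cell line, after 3 and 7 days of osteogenic differentiation in medium that had been conditioned with polycaprolactone (PCL) scaffolds, an area of 1.25 cm2 per ml kept in the medium for 72 h. The 4 arms of the study are a blank, S7, E7 and both, where S7 and E7 are peptides by the series title. PCL-S was read as the S7 arm, PCL-E as the E7 arm and PCL-SE as the arm with both; PCL-O is the arm left over and was read as the blank. In the results, a pair of levels without S7 is PCL-O, then PCL-E, and a pair with S7 is PCL-S, then PCL-SE. Each arm has 1 library on each of 2 days, 8 in all, with no repeat of an arm, so the p-values below measure how alike pooled arms were and not how cultures of an arm vary. The labels say mouse, but the gene identifiers are those of rat: 22050 features have rat Ensembl identifiers and 0 have mouse ones, so no genome position is given for the measured genes.

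Mitochondria carry their own small genome, which encodes core subunits of the respiratory chain and the ATP synthase. Its mRNAs are translated by a dedicated ribosome whose RNAs come from that genome and whose proteins are all encoded in the nucleus, made in the cytosol and imported. The small subunit decodes the mRNA; the large subunit joins amino acids and is anchored to the inner membrane, where the new proteins are inserted. The protein set mixes homologues of bacterial ribosomal proteins with proteins found only in mitochondria. Osteogenic differentiation of mesenchymal stem cells is known to come with a greater use of mitochondrial respiration.

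Total counts ran from 32950326 to 41754124 per library, and 3 counts corresponded to 0.0718 to 0.091 CPM. Floors of this kind cover counting error only. The PCL-S and PCL-SE libraries of day 7 stood apart in composition: their trimmed-mean (TMM) scaling factors were 1.15 and 1.16, against 0.928 to 1.02 in the other 6 libraries. All 8 stromal marker genes of a fixed list were detected in every library, with summed levels of 31495 to 49399 CPM on day 3. On day 7 that sum was 39128 and 26361 CPM without S7 and 10946 and 10513 with S7. The median of the 8 genes overlapped, at 621 and 495 CPM without S7 and 502 and 535 with S7. By the test described below, 5 of the 8 were called lower on day 7 and 1 higher, against 26.2% and 24.9% of all genes. Most of the summed osteoblast list of 6 genes was Spp1. On day 7 its sum was 1330 and 1055 CPM without S7 and 1711 and 2832 with S7. Its median went the other way, at 6.69 and 4.47 CPM without S7 and 0.455 and 0.987 with S7. By the test described below, 1 of its 5 tested genes was called higher on day 7 and 2 lower. Of all genes 24.9% were called higher and 26.2% lower. Bglap and Ibsp, markers of mature osteoblasts, were at no more than 0.969 CPM in any library. Summed macrophage markers stayed at or below 1.0 CPM and erythroid markers at or below 0.533 CPM, and endothelial markers ran from 3.37 to 14.4 CPM. The adipocyte list summed on day 7 to 0.334 and 2.01 CPM without S7 and to 15.5 and 9.57 with S7, nearly all of it Pparg and Fabp4. The part of these shifts in the results below was not tested, and in bulk RNA a change in the kinds of cells present and a change of RNA per cell cannot be told apart.

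Mitoribosomal protein mRNAs were at similar levels in all 4 arms on day 3 and in the blank on day 7. Both arms with S7 stood well above these on day 7, at about the same level as each other. The summed level of the 76 genes was 1221 and 1275 CPM without S7 and 1302 and 1342 with S7 on day 3. On day 7 it was 1229 and 1531 CPM without S7 and 2785 and 2725 with S7. In TMM-scaled CPM of the tested genes the day 7 gap was smaller, at 1288 and 1501 without S7 and 2422 and 2356 with S7. The median of the 75 tested genes was 13.4 to 15.0 CPM on day 3 and, on day 7, 14.2 in PCL-O, 16.3 in PCL-E and 31.7 in each of the 2 arms with S7. The PCL-E median of day 7 lay above the range of day 3 and far below both arms with S7.

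**Figure D1:**
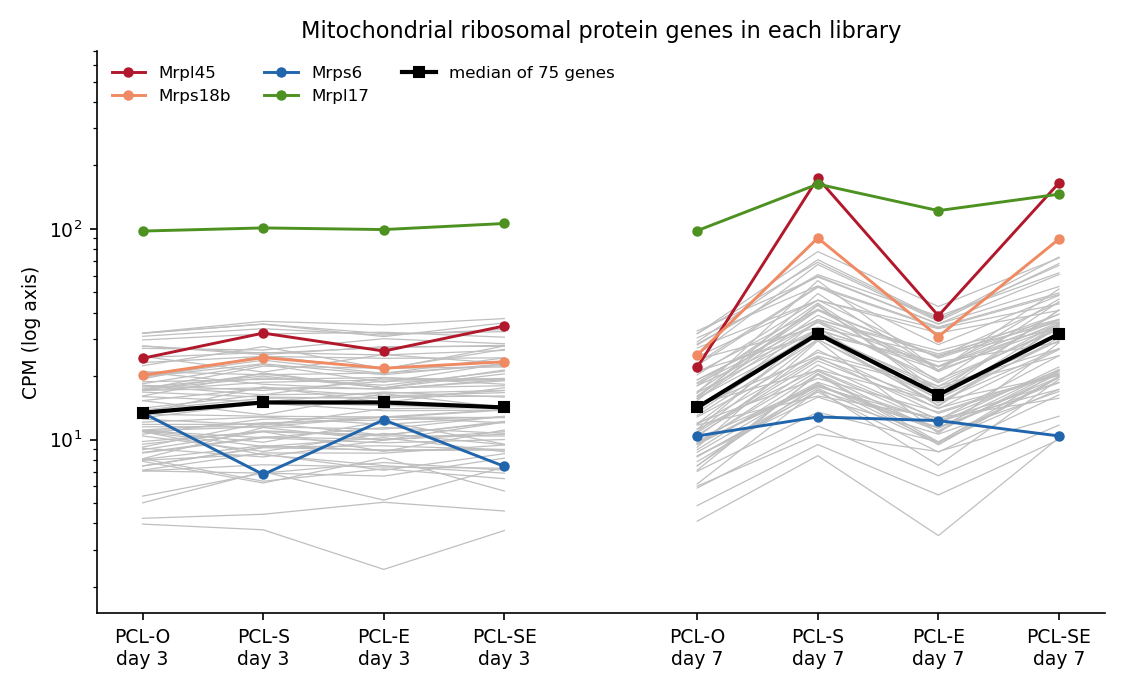
CPM of the 75 tested mitoribosomal protein genes (grey lines) in the 8 libraries, on a log axis, with the median as black squares and 4 genes in colour. The median stands at 31.7 CPM in the 2 arms with S7 on day 7. In the other 6 libraries it is 13.4 to 16.3 CPM. On day 7 Mrpl45 differs most between arms with and without S7, and the levels of Mrps6 overlap.

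Levels differed widely between genes. Per kilobase of the length implied by the deposited counts and FPKM, the highest mean levels of tested genes over the 8 libraries were those of Mrpl17 at 117 CPM per kb, Mrpl33 at 83.5 and Mrpl20 at 42.8, all homologues of bacterial large-subunit proteins. The lowest were those of Mrpl1 at 4.21 CPM per kb, Mrpl47 at 4.75 and Mrps36 at 5.21. Mrps36, despite its name, is known as a subunit of the 2-oxoglutarate dehydrogenase complex. Among the 75 tested genes, the same 6 held the highest and lowest places on the deposited FPKM scale.

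The effect of S7 was tested by fitting S7, day, their interaction and E7 to all 8 libraries with edgeR's quasi-likelihood test; a gene is called where its p, adjusted over all 15942 genes (Benjamini-Hochberg), is under 0.05. On day 7, 71 of 75 mitoribosomal genes were called higher in the arms with S7 and 0 lower, with a median log2 fold change of 0.73. Among all tested genes 24.9% were called higher and 26.2% lower, with a median of -0.03. The genes were also tightly grouped: the interquartile range of their log2 fold changes was 0.56 to 0.91, against -0.64 to 0.45 for all genes. In 74 of 75 genes both TMM-scaled CPM of the arms with S7 lay above both of the arms without it, which held for 36.7% of all genes.

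**Figure D2:**
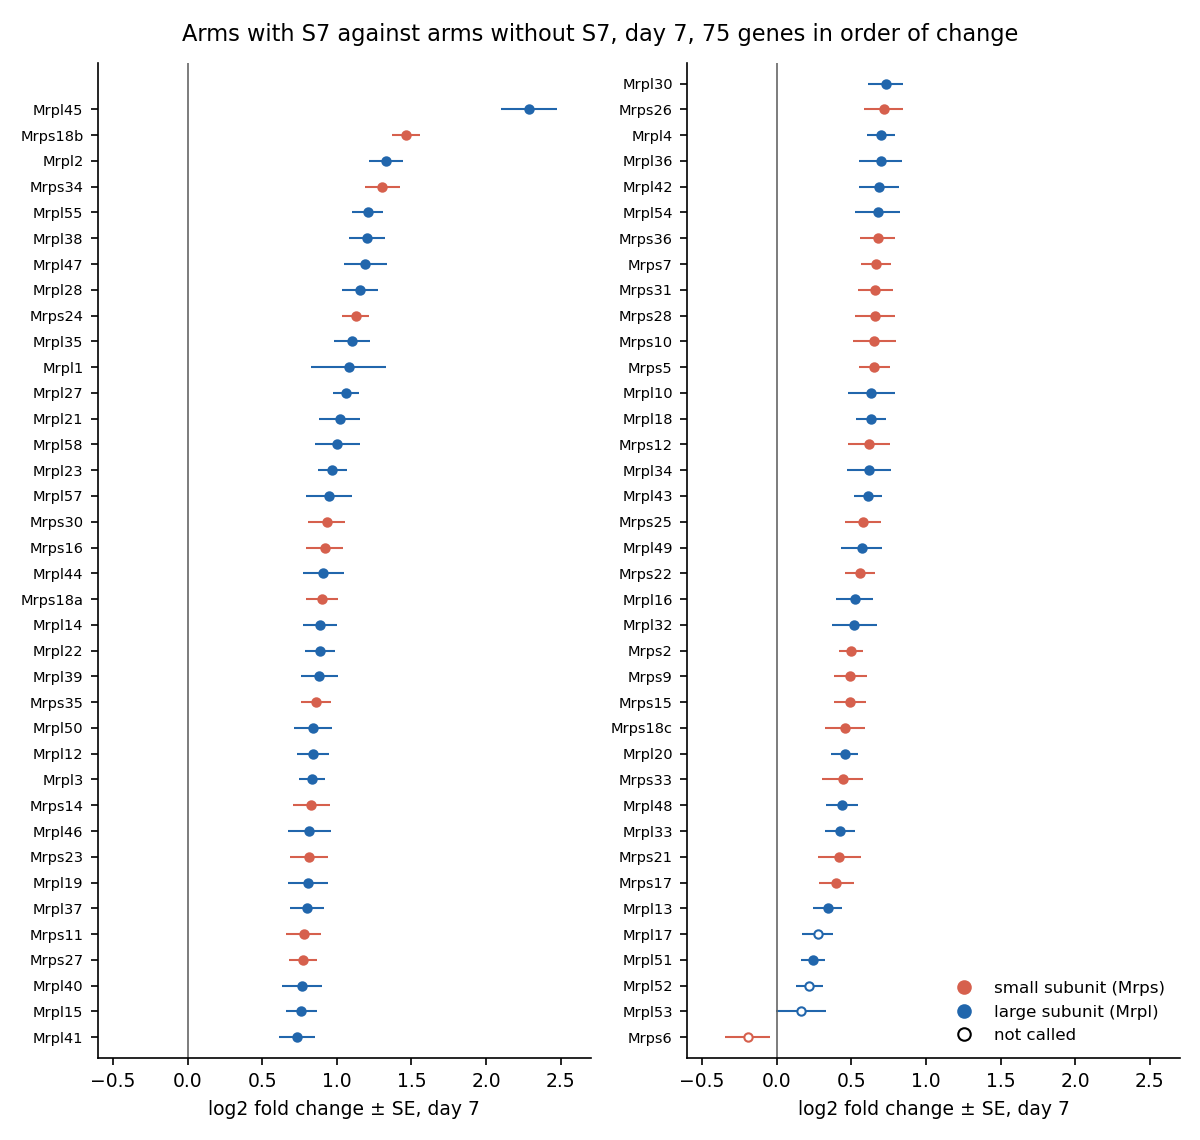
Log2 fold change with its standard error, arms with S7 (PCL-S, PCL-SE) against arms without it (PCL-O, PCL-E) on day 7, for each of 75 genes in order of size; orange marks Mrps and blue Mrpl symbols, and open circles were not called. All genes but Mrps6 lie to the right of 0, and Mrpl45 stands apart at 2.29.

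Mrpl45, which helps hold the large subunit to the inner membrane beside the exit of the peptide tunnel, changed most. It stood at 22.0 and 38.7 CPM without S7 and 174 and 165 with S7 on day 7. On day 3 it stood at 24.3 and 26.3 CPM without S7 and 32.0 and 34.6 with S7. The arms with S7 were higher on both days without overlap, by far the more on day 7. The day 7 log2 fold change (2 libraries against 2) was 2.29 ± 0.19, with an edgeR adjusted p of 0.000251. Here and below, ± gives an SE implied by the log2 fold change and the edgeR test statistic of the fit to all 8 libraries. The day 3 difference of 0.41 was not called (edgeR adjusted p 0.19).

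Mrps18b, one of 3 mammalian relatives of bacterial S18 and a small-subunit protein, came next. Its day 7 levels were 25.2 and 30.8 CPM without S7 and 90.5 and 89.4 with S7, so the groups were far apart, with a log2 fold change of 1.46 ± 0.09 (edgeR adjusted p 0.000144). The other relatives rose less: Mrps18a, whose protein sits in the large subunit, by 0.90, and Mrps18c by 0.46, a call that ended with the gene length trend removed (0.20, edgeR adjusted p 0.239).

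Mrpl2, the homologue of the bacterial protein L2 close to the peptidyl transferase centre, was at 9.19 and 10.7 CPM without S7 and 29.4 and 28.8 with S7 on day 7. Its log2 fold change was 1.33 ± 0.11 (edgeR adjusted p 0.000285). Mrps34, a mitochondria-specific protein needed for a stable small subunit, was at 16.6 and 21.3 CPM without S7 and 56.8 and 51.8 with S7, a log2 fold change of 1.31 ± 0.12. Mrpl55, a mitochondria-specific large-subunit protein, was at 15.3 and 16.3 CPM without S7 and 43.7 and 41.3 with S7, a log2 fold change of 1.21 ± 0.10. In these 3 genes the CPM of PCL-E lay a little above PCL-O and far below both arms with S7. With TMM scaling (2 added) the log2 ratio of PCL-E to PCL-O was 0.104 for Mrpl2, 0.243 for Mrps34 and -0.001 for Mrpl55.

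At the other end, the smallest called rises were those of Mrpl51 (0.24), Mrpl13 (0.34), Mrps17 (0.40), Mrps21 (0.42) and Mrpl33 (0.42), all log2 fold changes. With a gene length trend removed, 4 of these lost the call, at 0.02 for Mrpl33, 0.06 for Mrps21, 0.09 for Mrpl13 and 0.14 for Mrps17 (edgeR adjusted p 0.255 to 0.854), and Mrpl51 kept it at 0.26. Mrpl51 was at 24.0 and 25.1 CPM without S7 and 34.1 and 33.7 with S7 on day 7, and its edgeR adjusted p of 0.0429 was close to the threshold. Genes not called were Mrpl17 (log2 fold change 0.27), Mrpl52 (0.22), Mrpl53 (0.16) and Mrps6 (-0.20). Mrpl17, the most abundant per kilobase, was at 98.0 and 122 CPM without S7 and 163 and 146 with S7.

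Promoters are shown for the 2 largest log2 fold changes of day 7 and for Mrps6, the only tested member below 0. They were chosen because NRF1 and ETS factors are known to act at many genes of this class. The 250 bases before the transcription start come from RefSeq's mouse build GRCm38.p6, matched by symbol, so they show the mouse genes and not necessarily the species sequenced. Capitals mark matches to an NRF1 core, GCGCANGCG, or an ETS core, CCGGAAG, on either strand; neither motif contains the other.
Mrpl45, chr11:97315466-97315715, plus strand: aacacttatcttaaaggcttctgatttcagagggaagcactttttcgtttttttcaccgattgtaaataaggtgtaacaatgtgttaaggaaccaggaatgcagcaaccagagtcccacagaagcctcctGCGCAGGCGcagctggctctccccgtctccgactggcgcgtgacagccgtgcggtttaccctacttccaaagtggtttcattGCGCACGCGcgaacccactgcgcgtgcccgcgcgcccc
Mrps18b, chr17:35916441-35916690, minus strand: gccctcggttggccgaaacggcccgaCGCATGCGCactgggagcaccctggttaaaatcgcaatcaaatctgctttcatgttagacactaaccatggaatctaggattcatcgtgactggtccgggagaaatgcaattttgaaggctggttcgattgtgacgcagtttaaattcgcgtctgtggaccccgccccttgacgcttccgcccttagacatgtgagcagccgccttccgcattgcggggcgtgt
Mrps6, chr16:92058086-92058335, plus strand: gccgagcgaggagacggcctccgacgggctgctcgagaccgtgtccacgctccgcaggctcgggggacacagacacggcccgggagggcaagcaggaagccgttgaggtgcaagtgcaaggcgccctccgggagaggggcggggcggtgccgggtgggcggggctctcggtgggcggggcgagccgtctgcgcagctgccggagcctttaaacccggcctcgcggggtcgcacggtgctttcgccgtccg

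The Mrpl45 window holds 2 matches to the NRF1 core, that of Mrps18b holds 1, and that of Mrps6 holds 0; none of the 3 holds the ETS core. Among other members, Mrpl2 (1.33) and Mrpl55 (1.21) have neither core, and Mrpl32, with 3 matches to the NRF1 core, had a log2 fold change of 0.52. Of 66 members with a promoter in the table, 12 (18.2%) had the NRF1 core and 18 (27.3%) the ETS core. Among tested genes with a promoter (9567) the shares were 12.4% and 15.2%, and among all genes with one (27025) they were 5.86% and 7.83%. The median day 7 log2 fold change was 0.86 in the 12 genes with the NRF1 core and 0.69 in the 54 tested genes without it, a difference given as a description. A match is a string of letters and was not tested as a binding site.

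The uncertain case among these is Mrpl53, since the table also lists LOC103692169, whose annotation carries the symbol Mrpl53. It is called a copy here on that ground only, as the sequences were not compared. Mrpl53 alone was at 11.7 and 12.7 CPM without S7 and 16.1 and 15.7 with S7 on day 7, and the copy at 5.22 and 8.38 CPM without S7 and 16.7 and 16.3 with S7. With the reads of both summed, the level was 16.9 and 21.1 CPM without S7 and 32.8 and 32.0 with S7, and the log2 fold change was 0.55 ± 0.11 with an edgeR adjusted p of 0.00597. Mrpl36 has such a copy too (LOC100910528), and its log2 fold change was 0.70 alone and 0.63 with the copy.

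Grouped by subunit, 28 of 29 tested Mrps genes and 43 of 46 Mrpl genes were called higher on day 7, against 24.9% of all genes. Their median log2 fold changes were 0.66 and 0.79. The 2 symbols Mrps18a and Mrps30 name proteins that are known to sit in the large subunit. Homologues of bacterial small-subunit proteins had 15 of 16 called higher (median 0.64) and mitochondria-specific small-subunit proteins 10 of 10 (median 0.75). For the large subunit, 28 of 29 bacterial homologues (median 0.73, mrpl9, mrpl11 and mrpl24 included) and 20 of 22 mitochondria-specific proteins (median 0.81) were called higher. The difference between these groups was not tested.

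Of the 75 tested mitoribosomal genes 71 were called higher on day 7, and of all genes 24.9%. Proteins around the exit of the peptide tunnel were called higher in 7 of 7 cases, close to that share of members. Their median log2 fold change was 0.91. Besides Mrpl45, these were Mrpl47 (1.19), Mrpl23 (0.97), Mrpl44 (0.91), Mrpl22 (0.89), Mrpl39 (0.88) and mrpl24 (0.39). Mrpl47, the relative of bacterial L29, was at 6.16 and 7.54 CPM without S7 and 17.2 and 19.3 with S7 on day 7. The 3 stalk proteins, which recruit translation factors, were called higher as well: Mrpl12, the homologue of bacterial L7/L12, by 0.84, Mrpl10 by 0.63 and mrpl11 by 0.58. Mrpl12 was at 29.1 and 37.4 CPM without S7 and 71.4 and 67.0 with S7. The third lower-case gene, mrpl9, stood at 19.5 and 26.1 CPM without S7 and 42.9 and 40.8 with S7, a called log2 fold change of 0.66.

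On day 3 the arms with and without S7 differed little: 1 of 75 genes was called higher and 1 lower. The shares of all genes were 7.1% and 6.87%. The median log2 fold change was 0.10, with 53 of 75 genes above 0 and 12 at an unadjusted edgeR p under 0.05. In TMM-scaled CPM both arms with S7 lay above both others in 42 of 75 genes and below in 10. Among all genes this held for 35.2% and 33.4%. Mrps6, homologue of bacterial S6, was the one called lower. Its level was 13.4 and 12.4 CPM without S7 and 6.83 and 7.46 with S7 on day 3, a log2 fold change of -0.84 ± 0.15 (edgeR adjusted p 0.0156). On day 7 its levels overlapped, at 10.4 and 12.3 CPM without S7 and 12.8 and 10.4 with S7. Mrps28, a small-subunit protein, was called higher on day 3, with 5.01 and 5.16 CPM without S7 and 7.03 and 7.40 with S7, and a log2 fold change of 0.52 ± 0.13 (edgeR adjusted p 0.0475). Neither day 3 call held when any 1 of the 4 libraries of that day was left out (0 called), and 8 genes, 7 higher and 1 lower, were called without the PCL-O or the PCL-E library of day 7.

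The S7 difference was larger on day 7 than on day 3 in 49 of 75 genes by the interaction term, and smaller in 0, against 13.2% and 15.5% of all genes called in each direction. The median change of the log2 fold change was 0.64 for these genes and -0.03 for all. Mrpl45 (1.88 ± 0.26), Mrpl47 (1.43 ± 0.20), Mrps34 (1.38 ± 0.17), Mrps18b (1.26 ± 0.13) and Mrpl57 (1.16 ± 0.22) led. The smallest called changes were those of Mrpl20 (0.48), Mrpl15 (0.50), Mrpl4 (0.50), Mrps22 (0.52) and Mrps27 (0.53). The count depended on single libraries: it was 11 without PCL-SE on day 3, 14 without PCL-O on day 3, 15 without PCL-S on day 7, 17 without PCL-S on day 3, 20 without PCL-E on day 3 and 32 without PCL-SE on day 7.

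From day 3 to day 7, 69 of 75 genes rose in the arms with S7 and 0 fell, against 24.4% and 26.4% of all genes; the median log2 fold change was 0.72. The largest rises were those of Mrpl45 (2.05 ± 0.18), Mrps18b (1.60 ± 0.09), Mrpl57 (1.41 ± 0.16), Mrps34 (1.31 ± 0.12) and Mrpl47 (1.20 ± 0.14). Mrpl57, a small mitochondria-specific protein, went from 9.27 to 29.8 CPM in PCL-S and from 8.75 to 29.5 in PCL-SE. The smallest called rises were those of Mrpl48 (0.31), Mrps9 (0.37), Mrps28 (0.38), Mrps27 (0.39) and Mrpl14 (0.44). Without PCL-SE on day 3 the count of rises was 43.

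In the arms without S7, 0 of 75 genes were called in either direction between the days (edgeR, with 3 at an unadjusted p under 0.05 and 0 by DESeq2), against 0.671% of all genes called higher and 0.935% lower. The median log2 fold change was 0.07. The 3 genes with the smallest p were Mrps18b (0.35 ± 0.09), Mrpl43 (0.29 ± 0.10) and Mrpl15 (0.27 ± 0.10). Without the PCL-O library of day 7, Mrpl10, Mrpl45, Mrps18b and Mrps30 were called higher.

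E7, tested over both days, gave 0 called genes (edgeR, with 3 at an unadjusted p under 0.05 and 0 by DESeq2), where 0.0% of all genes were called higher and 0.0% lower. The median log2 fold change was 0.06, against -0.002 for all genes, and 63 of 75 genes were above 0. This term averages over both days and over arms with and without S7, so it could miss an effect of E7 in only some of them. The smallest p belonged to Mrps18c (0.31 ± 0.10), Mrpl46 (0.27 ± 0.10) and Mrpl42 (0.23 ± 0.10), each with an edgeR adjusted p of 0.895.

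**Figure D3:**
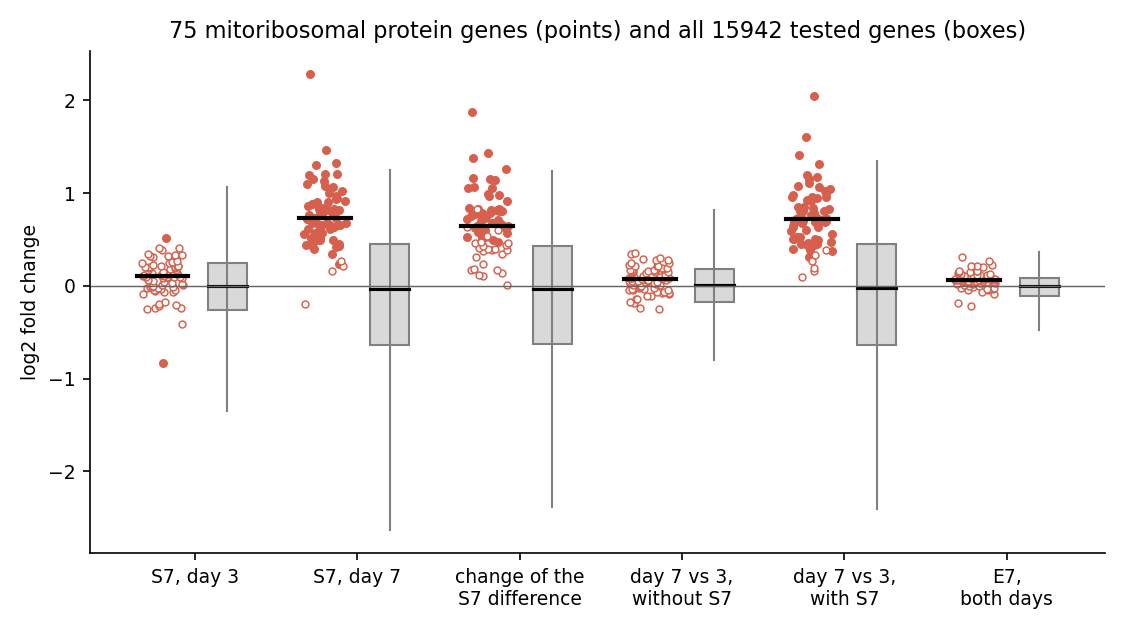
Log2 fold changes of the 75 genes in the 6 comparisons (points, filled where called, with a bar at the median) beside all 15942 tested genes (box from the lower to the upper quartile, bar at the median, whiskers from the 5th to the 95th percentile). The medians are 0.73, 0.64 and 0.72 in the comparisons that contain the S7 arms of day 7 and 0.06 to 0.10 in the other 3.

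Single arms have 1 library a side, so their ratios carry no test; the 6 ratios against PCL-O share the PCL-O library of their day. On day 7 the median log2 ratio of TMM-scaled CPM (2 added) to PCL-O was 0.77 for PCL-S, 0.79 for PCL-SE and only 0.18 for PCL-E. PCL-S was at least 1.5-fold above PCL-O in 54 genes and PCL-SE in 56, and PCL-E in 1, Mrpl45 (log2 ratio 0.68); among all genes the shares were 15.5%, 14.8% and 2.54%. PCL-SE against PCL-S, a pair that differs by E7, had a median of -0.01, with no gene past 1.5-fold either way. PCL-E lay above PCL-O and below both arms with S7 in 66 of 75 genes and in 25% of all genes. On day 3 the medians against PCL-O were 0.11 for PCL-S, 0.04 for PCL-E and 0.12 for PCL-SE. The authors' deposited log2 fold changes also compare 1 library a side. On day 7 their medians over the 75 genes, against PCL-O, were 0.84 for PCL-S, 0.85 for PCL-SE and 0.2 for PCL-E.

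Scaling moved the size of the day 7 difference. With library totals in place of TMM, 73 genes were called higher, the median log2 fold change was 0.95 and that of all genes 0.19. Of all 15942 genes 5642 were then called higher and 3008 lower. Higher genes made up 65.2% of all called genes, against 48.7% with TMM. A change of scaling shifts all genes alike, so the distance of 0.76 from the median of all genes is the same under both by construction.

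Short genes as a class were also higher in the arms with S7 on day 7. The mitoribosomal genes are short, with a median implied length of 1031 bases against 2304 for tested genes. Tested genes were split into 5 classes of equal size by length. In the shortest class (146 to 1317 bases) the median log2 fold change was 0.25 and 33.7% were called higher, while in the longest class (3985 to 27228 bases) it was -0.30 and 13.1%. The 48 mitoribosomal genes in the shortest class had a median of 0.69, with 44 called higher. The 18 in the next class had a median of 0.81, with all 18 called higher, where 32.0% of genes were. With the length trend removed, 56 of 75 genes were called higher and Mrps6 lower (-0.49, edgeR adjusted p 0.0225). Of all 15942 genes 4158 were then called higher and 3922 lower. The median of the mitoribosomal genes was 0.59, or 0.59 above that of all genes. The 15 genes that lost the call were Mrpl13, Mrpl20, Mrpl32, Mrpl33, Mrpl34, Mrpl36, Mrpl48, Mrpl49, Mrpl54, Mrps12, Mrps17, Mrps18c, Mrps21, Mrps25 and Mrps33.

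**Figure D4:**
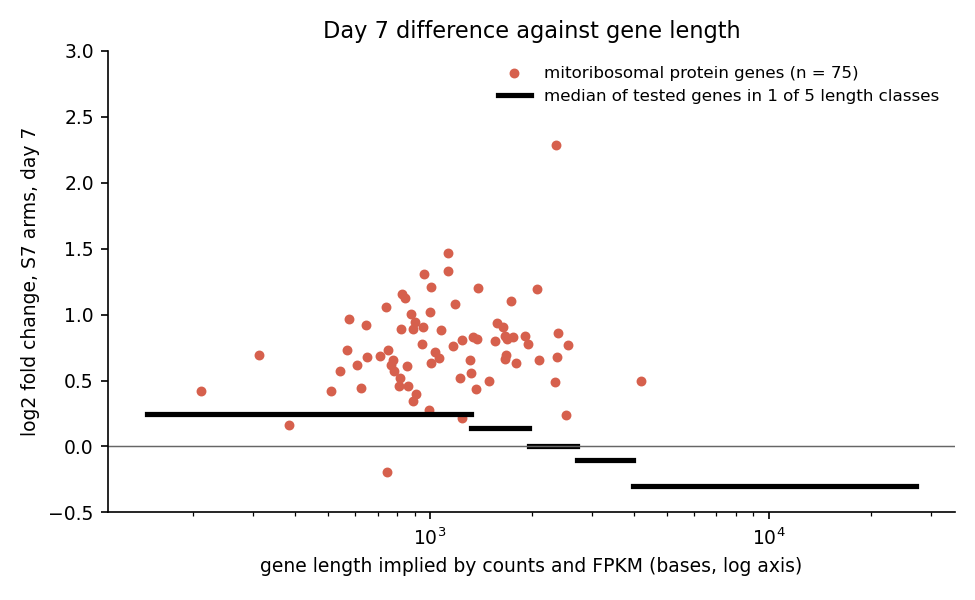
Log2 fold change of the arms with S7 on day 7 against implied gene length (log axis) for 75 mitoribosomal protein genes (orange), with the median of tested genes in each of 5 length classes as black bars. The bars fall from 0.25 in the shortest to -0.30 in the longest class, and nearly all orange points lie above the bar of their length.

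Other nuclear genes of mitochondrial gene expression, and import and chaperone genes, were mostly higher too in the arms with S7 on day 7. Of all genes 24.9% were called higher. Of ribosome assembly and rRNA factors 15 of 20 were called higher and 0 lower (median log2 fold change 0.56). They include Mrm3, which methylates the large rRNA, at 5.13 and 5.87 CPM without S7 and 19.9 and 16.3 with S7 (1.49 ± 0.15), and Noa1 (0.96). Mitochondrial tRNA synthetases had 12 of 17 called higher (median 0.42) and import and chaperone genes 11 of 12 (median 0.58), among them Hspd1, the mitochondrial chaperonin (0.69). Of translation factors only 6 of 15 were called higher (median 0.33), with Tufm, the elongation factor that delivers tRNAs, at 0.83 and Oxa1l, the inner-membrane insertase, at 0.81. Of genes of mitochondrial DNA replication and transcription 5 of 10 were called higher (median 0.52), led by the helicase Twnk (1.26) and the RNA polymerase Polrmt (1.02). Mitoribosomal proteins with symbols of another form gave 3 called higher, Chchd1 (0.88), Dap3 (0.57) and Gadd45gip1 (0.50), and 1 lower, Aurkaip1 (-0.27), of 5.

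The mRNAs of the mitochondrial genome, which these ribosomes translate, went the other way. On day 7, 10 of 13 were called lower in the arms with S7 and 0 higher, with a median log2 fold change of -0.62, where 26.2% of all genes were called lower. Mt-nd6 (-1.39 ± 0.17), Mt-nd5 (-1.06 ± 0.08) and Mt-nd4l (-1.02 ± 0.09), all subunits of complex I, fell most. Mt-nd5 was at 1971 and 2152 CPM without S7 and 1192 and 1126 with S7. Mt-co1 (0.09), Mt-co3 (-0.03) and Mt-nd3 (-0.16) were not called. The summed level of all 13 depended on the scale. In CPM over library totals it overlapped between the groups, at 30866 and 38481 without S7 and 35052 and 34148 with S7. In TMM-scaled CPM both arms with S7 lay below, at 32333 and 37738 without S7 and 30486 and 29533 with S7. Mt-co1 made up the largest part, with 12520 and 15787 CPM without S7 and 17297 and 17781 with S7. With library totals 6 of 13 were called lower and 1 higher, and without PCL-SE on day 7, 6 were lower. Of all 15942 genes, 3008 were called lower and 5642 higher on day 7 with library totals. On day 3, 0 of the 13 mRNAs were called (edgeR, with 1 at an unadjusted p under 0.05).

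**Figure D5:**
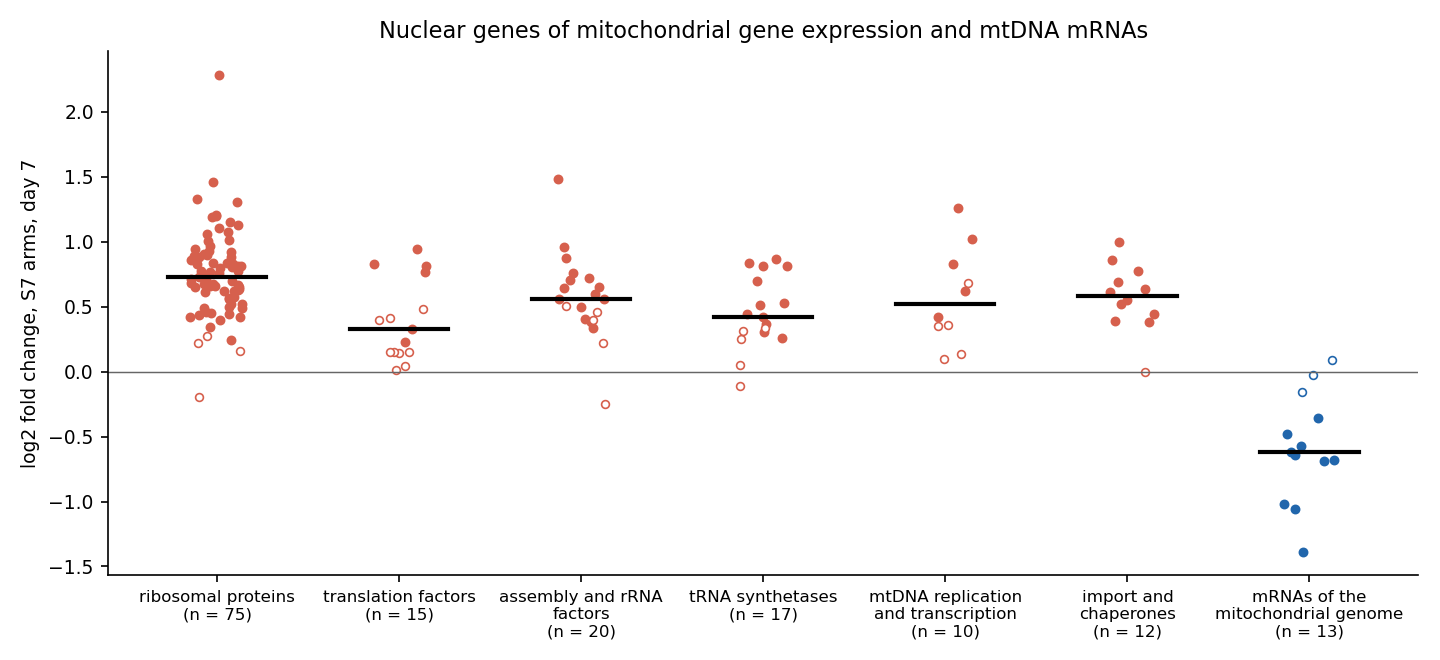
Log2 fold change of the arms with S7 on day 7 for the mitoribosomal protein genes and 5 other lists of nuclear genes (orange). These lists cover mitochondrial gene expression and, in 1 list, import and chaperones. The 13 mRNAs of the mitochondrial genome are in blue. Filled points were called and bars mark medians. The medians of the nuclear lists run from 0.33 to 0.73 and that of the mitochondrial mRNAs is -0.62.

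Among known transcriptional regulators of nuclear genes for mitochondria, 5 of 9 were called higher and 1 lower on day 7, where 24.9% and 26.2% of all genes were. Myc was at 12.8 and 18.0 CPM without S7 and 78.5 and 73.5 with S7 on day 7 (log2 fold change 2.10 ± 0.13). Esrra (0.66), Nrf1 (0.46) and Yy1 (0.40) rose less, and Gabpa, an ETS family factor, fell (-0.38). Ppargc1b was called higher at low levels, with 0.182 and 0.0958 CPM without S7 and 0.728 and 1.09 with S7, and Ppargc1a, at no more than 0.613 CPM, was not called. Of 8 proliferation genes, 6 were called higher on day 3, where 7.1% of all genes were. On day 7, 2 of them were called higher and 3 lower, against 24.9% and 26.2% of all genes, so the higher share was near the background.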

How the data were processed

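Messenger RNA of 8 libraries was measured, 1 for each of 4 arms on days 3 and 7. The authors deposited raw whole-number counts, per the file headers, and FPKM, which served here only for implied gene lengths and a check of levels. The authors' log2 fold changes and p-values come from edgeR, per the file headers. The sources used here do not give the aligner, counter or strand setting, nor whether the 3 RNA samples of the protocol were pooled. In the table, 10 lines of annotation text were left out.

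Counts were filtered (filterByExpr), scaled with TMM and fitted in edgeR 4.0.16 (R 4.3.3; S7, day, their interaction, E7; 3 residual degrees of freedom and a biological coefficient of variation of 0.137), with Benjamini-Hochberg adjustment over all genes; the fit was tested on simulated data. Lengths were implied by counts of at least 20 and FPKM. Printed CPM carry no TMM factor, whereas fold changes do. Alternatives were RLE, upper quartile and total-count scaling, no filter, DESeq2 1.42.0, a 1.5-fold minimum, a length trend removed (loess, span 0.5), an E7 by day term, leaving out each library, and, added after the data were seen, copies summed. Named genes are the 5 highest and 5 lowest called per comparison, the 3 smallest p where none was called, the 3 highest and lowest levels, and the stalk and exit site proteins; the members, lists and other named genes were chosen with earlier results of these data known. Tables and figures used Python 3.11.15, pandas 2.3.3 and matplotlib 3.10.9.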

Additional observations from a re-analysis of the deposited data

Results flagged for a closer look

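The interaction term of the edgeR fit marked a difference between the days. The S7 difference was larger on day 7 in 49 of 75 genes, against 13.2% of all genes. By gene, the change of the log2 fold change from day 3 to day 7 was 1.88 for Mrpl45, 1.43 for Mrpl47, 1.38 for Mrps34, 1.26 for Mrps18b and 1.16 for Mrpl57 among the largest. Among the smallest called it was 0.48 for Mrpl20, 0.50 for Mrpl15, 0.50 for Mrpl4, 0.52 for Mrps22 and 0.53 for Mrps27. All 10 were higher in both arms with S7 than in both arms without it on day 7. On TMM-scaled CPM this held for 74 of 75 mitoribosomal genes and 36.7% of all genes, so it does not set these 10 apart.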

How the results depend on the processing

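Each arm has 1 library a day, so no repeat of an arm limits what the p-values cover, and depth limited only Mrps21l. With a library left out, the lone library of its pair is assumed to vary like the others. No paired analysis was possible because no group has more than 1 library and the labels carry no replicate number. On day 7, 49 of 75 genes were called higher under every alternative other than the 1.5-fold minimum, which left 54. Of the day 7 counts, RLE gave 71, upper quartile 64, total counts 73, no filter 70, DESeq2 69 and the E7 by day term 68.

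With a library left out, the S7 count ran from 51 to 70 on day 7 and from 0 to 8 on day 3, the interaction count from 11 to 58, the count between days from 43 to 71 with S7 and from 0 to 4 without it, and the E7 count stayed at 0. On day 3, 1 gene, Mrps6, was called with upper quartile, total counts, no filter, DESeq2, the E7 by day term or the 1.5-fold minimum, and the cause was not tested. The day 3 to day 7 median log2 fold change in the arms without S7 ran from -0.017 (without PCL-E on day 7, a change of sign) to 0.17. The mitochondrial mRNAs called lower ran from 6 to 10 with a library left out and numbered 6 with total counts, a scaling that lifts the median of all genes. With total counts the median log2 ratios to PCL-O on day 7 were 1.02 for PCL-S and 1.04 for PCL-SE, for the same reason. Of the named genes' values under alternatives, 491 kept their direction and side of the threshold, 154 lost the call, 1 gained it and none reversed.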
